A study of Canis lupus familiaris with 222 samples.

Results

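The 100 most stable well-expressed gene identifiers of the canine mammary tumor (CMT) transcriptome were examined. They were the identifiers with the smallest standard deviation (SD) of log2(FPKM + 1) over 221 libraries, among 3467 identifiers with a mean of at least 20 FPKM. FPKM is the number of sequenced fragments of a gene scaled for the length of its transcript and for how many fragments of the library were mapped. Members thus made up 2.88% of the well-expressed identifiers, and the whole table lists 24580.

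The libraries came from whole tissue of female dogs with spontaneous mammary tumors removed at surgery: 64 were of normal mammary tissue beside the tumor, each paired with a tumor library of the same animal, and all others were CMTs. No transgene, cell line or treatment separates the groups. The recorded ages, known for 150 dogs, ran from 2 to 19 years with a median of 12; 49 dogs were neutered, 3 listed as not applicable and all others intact. By the sample labels 44 tumors were benign, 62 malignant of grade 1, 23 of grade 2 and 28 of grade 3; the study's clinical table gives 9 of the tumors labelled benign a grade of 1. The same table places the tumors in 5 expression clusters made by nonnegative matrix factorization, of which NMF1 held 92 tumors, NMF2 35, NMF3 18, NMF4 7 and NMF5 5. Gene names could not be assigned to the identifiers from the tables used here, so the functions of the members and the cell types of the tissues were not examined.

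Genes with a steady level across tissues are often those that every cell needs for its basic upkeep, such as making proteins, breaking them down and supplying energy, and they are commonly used as reference genes. FPKM divides each gene by the sequenced total of its library. A few very abundant transcripts can therefore lower the FPKM of all other genes in a library even if those genes are transcribed as before, and steady genes serve as a ruler for such shifts between libraries. In bulk tissue, fewer cells of a type and less RNA per cell cannot be told apart.

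The mean levels of the members lay between 20.2 and 235 FPKM, with a median of 33.5. Of the 100 members, 42 had a mean under 30 FPKM, 30 a mean of at least 50 FPKM and 5 a mean of at least 100 FPKM. The other well-expressed identifiers had a median of 40.9 FPKM and reached 22122 FPKM. The SD of log2(FPKM + 1), the value that chose the members, ran from 0.212 to 0.326 with a median of 0.306, against a median of 0.600 and a highest value of 6.32 in the 3367 other well-expressed identifiers. There was no gap at the limit. The last member had an SD of 0.325784 at a mean of 44.7 FPKM, and the first identifier outside had an SD of 0.326140 at 20.3 FPKM.

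**Figure D1:**
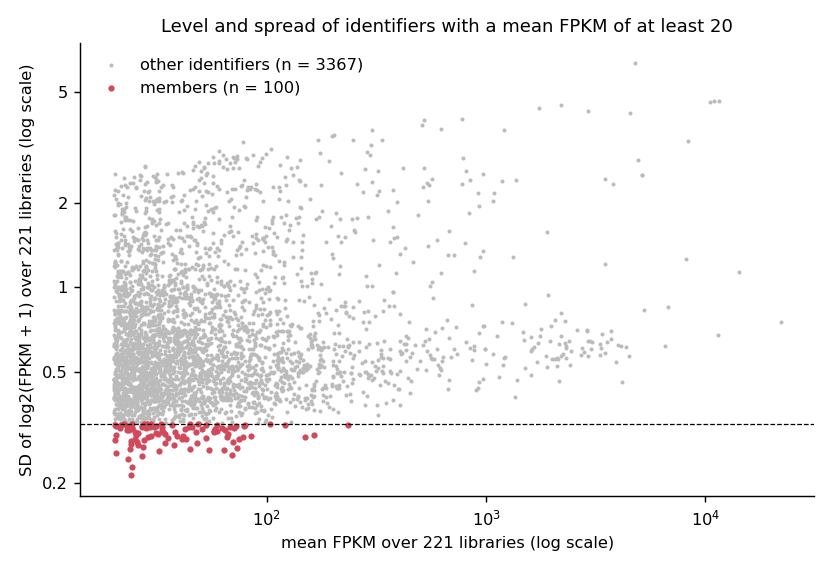
Mean FPKM over the 221 libraries (horizontal, log scale) and SD of log2(FPKM + 1) (vertical, log scale) of the 3467 identifiers with a mean of at least 20 FPKM, 1 point each, with the 100 members in red and the dashed line at the SD of the last member. The members lie between 20.2 and 235 FPKM, at the lower edge of a cloud that continues upward without a gap.

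No member was listed at 0 in any library. Over all members and libraries the lowest value was 5.26 FPKM and the highest 433 FPKM. Even the most stable identifiers therefore varied: the ratio of a member's highest to its lowest library ran from 2.54 to 9.17, with a median of 3.98. The extremes were not spread evenly over libraries. The tumor CMT-686, a grade 1 tumor of NMF2, was the lowest library for 23 of the 100 members, and the tumor CMT-495 was the highest for 14. In all, 30 libraries were the lowest for at least 1 member and 41 were the highest for at least 1.

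The member with the smallest SD was ENSCAFG00000017177. Its level was 12.8, 23.9 and 31.2 FPKM (lowest, median, highest) in the normal tissues and 14.7, 23.9 and 34.5 FPKM in the CMTs. The medians of tumor and normal tissue were nearly equal, and the ranges overlapped almost fully. By cluster its median was 23.4 FPKM in NMF1, 23.7 in NMF2, 27.4 in NMF3, 25.7 in NMF4 and 19.5 in NMF5. The lowest NMF3 tumor, at 21.5 FPKM, lay within the range of NMF5, whose 5 tumors reached from 18.0 to 22.0 FPKM.

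The member with the highest mean was ENSCAFG00000017648, at 235 FPKM. In the normal tissues it stood at 117.9, 215 and 346.5 FPKM (lowest, median, highest), and in the CMTs at 102.3, 240 and 433 FPKM. Its lowest library was again CMT-686. The mean log2 difference of tumor over normal tissue was 0.16, and the tumor was higher in 46 of the 64 dogs with both tissues.

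The largest differences in favor of the tumors were small. ENSCAFG00000010265 measured 13.7, 22.1 and 32.9 FPKM (lowest, median, highest) in normal tissues and 16.5, 26.5 and 58.0 FPKM in CMTs, a mean log2 difference of 0.25, with the tumor higher in 51 of 64 dogs. ENSCAFG00000001400 measured 47.8, 67.0 and 127 FPKM in normal tissues and 45.6, 77.4 and 195 FPKM in CMTs, a difference of 0.23, with the tumor higher in 49 of 64 dogs. For both, the groups overlapped, and the highest libraries were CMTs.

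In the other direction, ENSCAFG00000015454 measured 14.0, 25.4 and 40.5 FPKM in normal tissues and 8.77, 22.3 and 47.8 FPKM in CMTs, a log2 difference of -0.19, with the tumor higher in 17 of 64 dogs. ENSCAFG00000017510 measured 32.4, 64.7 and 148.7 FPKM in normal tissues and 39.7, 59.3 and 93.2 FPKM in CMTs, a difference of -0.12, with the tumor higher in 24 of 64 dogs. The lowest and the highest library of ENSCAFG00000017510 were both normal tissues, and its SD of log2(FPKM + 1) was 0.41 in normal tissues against 0.26 in CMTs.

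**Figure D2:**
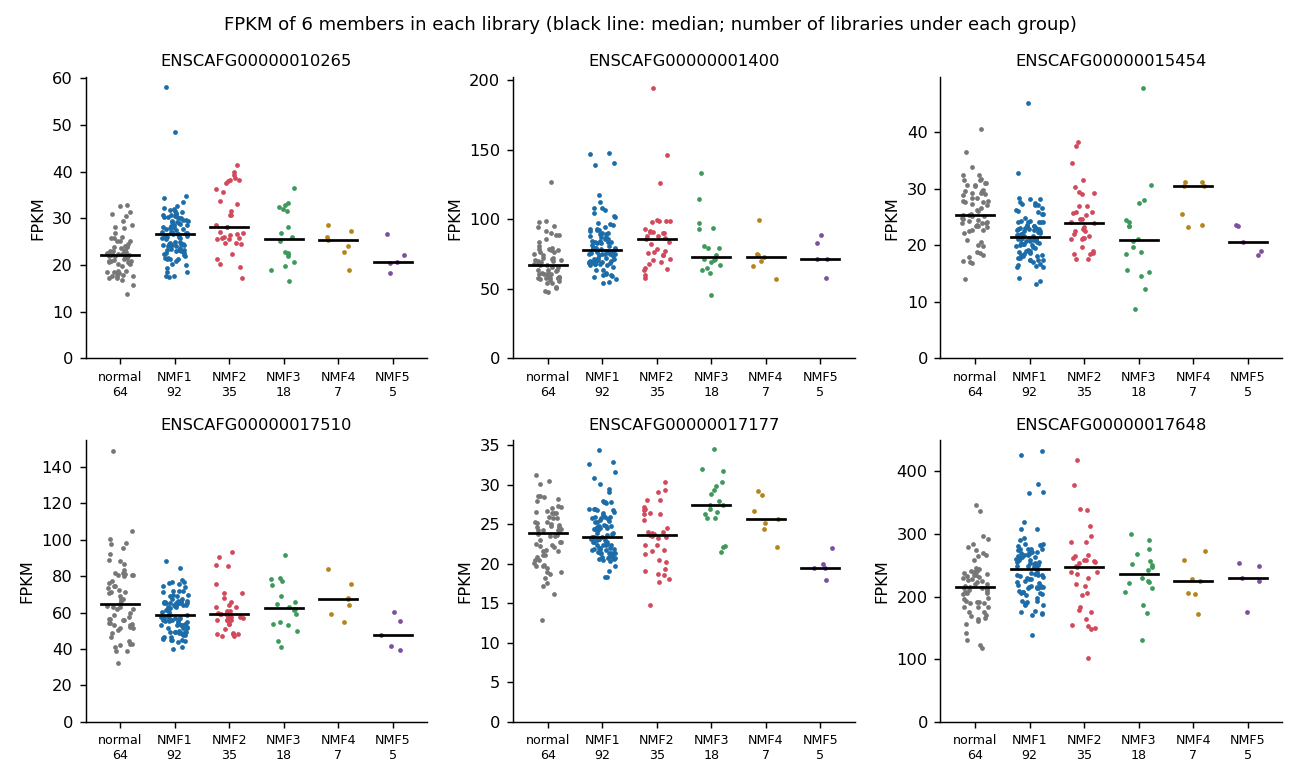
FPKM (vertical, linear, from 0) of 6 members in each of the 64 normal tissues and the CMTs by expression cluster, 1 point per library, with the median as a black line. The groups overlap in every panel, the median of ENSCAFG00000010265 is 22.1 FPKM in normal tissues and 28.2 FPKM in NMF2, and that of ENSCAFG00000017177 stays between 19.5 and 27.4 FPKM in all groups.

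Tumor and normal tissue were compared over all members. The tumor and normal libraries chose the members, and a small SD over both limits the difference between them, so the values are a description and not a test. The log2 difference of tumor over normal tissue ran from -0.19 to 0.25 (0.878-fold to 1.19-fold) with a median of 0.05 and the middle 50% between -0.05 and 0.11. It was above 0 for 68 of 100 members, and 64 members were higher in the tumor in most of the 64 dogs. Only 3 members differed by more than 0.2. In the other well-expressed identifiers the median was 0.03, with the middle 50% between -0.20 and 0.25. Of these 3367 identifiers, 54.3% were above 0 and 1871 differed by more than 0.2. How many of them were higher in the tumor in most dogs was not counted.

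In the limma fit over all 14713 identifiers with a mean of at least 0.5 FPKM, 31 members were higher in CMTs and 7 lower at a Benjamini-Hochberg adjusted p under 0.05, where 34.2% of all identifiers were higher and 21.6% lower. None reached a log2 difference of at least 1, where 1.44% of all identifiers were at least 2-fold higher and 3.90% at least 2-fold lower. An unadjusted p under 0.05 was counted for members only, 45 of them, so no share of all identifiers stands beside it. With the dog as a block, over the 64 dogs with both tissues, 33 members were higher and 3 lower. In that fit 34.6% of all identifiers were higher and 20.8% lower. With standard errors between 0.03 and 0.05, the smallest difference that passed was 0.09. Differences far below 2-fold thus passed the threshold with this number of libraries.

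How many members passed depended on the ruler. When each library was scaled by its median FPKM, 8 members were higher and 8 lower, where 30.3% of all identifiers were higher and 23.8% lower. By its upper quartile 15 and 13 members were called, with 30.7% and 24.2% of all identifiers, and by the members themselves 19 and 26, with 28.7% and 24.5%. The share of higher among called members therefore moved with each scaling, and the median of the members moved from 0.05 to between 0.01 and 0.02. The comparison was also split by surgery year, which need not match how the libraries were prepared or sequenced. The median of the members was 0.04 in 2016 (42 tumors, 13 normal tissues), 0.06 in 2017 (98 and 40) and -0.02 in 2018 (17 and 11). Members above 0 numbered 58, 71 and 44 of 100, so the small excess toward tumors was not seen in 2018. The other identifiers were not counted by year, and the difference between years was not tested.

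The NMF2 and NMF1 tumors were compared in the same way. These clusters were made from the same expression values, so this too is a description. The log2 difference of NMF2 over NMF1 ran from -0.33 to 0.39 (0.797-fold to 1.31-fold) with a median of 0.05 and the middle 50% between -0.08 and 0.18. It was above 0 for 57 members and below 0 for 43, and 26 members differed by more than 0.2 in either direction. The other well-expressed identifiers lay lower, with a median of -0.15 and the middle 50% between -0.52 and 0.22. Of these 3367 identifiers, 38.6% were above 0 and 2458 differed by more than 0.2. Over all 14424 identifiers tested in these tumors the median was -0.23.

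At an adjusted p under 0.05, 34 members were higher in NMF2 and 14 lower, and 13.7% of all tested identifiers were higher and 49.7% lower. None of the members differed at least 2-fold, against 0.263% higher and 5.66% lower of all identifiers. Without CMT-686, 36 members were higher and 10 lower, where 13.8% of all identifiers were higher and 47.4% lower. The median of the members was 0.10 among surgeries of 2016, 0.07 in 2017 and -0.04 in 2018, when NMF2 had only 4 tumors and NMF1 10. The other well-expressed identifiers lay below the members in all 3 years, at -0.10, -0.09 and -0.48.

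The 6 members named above showed no common direction between the clusters. ENSCAFG00000015454 had a median of 21.5 FPKM in NMF1 and 23.9 in NMF2, a log2 difference of 0.16, and ENSCAFG00000010265 had 26.6 and 28.2 FPKM, a difference of 0.14. ENSCAFG00000001400 differed by 0.08 and ENSCAFG00000017510 by 0.05. The values were -0.05 for ENSCAFG00000017177 and -0.06 for ENSCAFG00000017648, and both were above 0 with libraries scaled by their median (0.39 each) or upper quartile (0.20 and 0.19). All 6 differences were smaller than the SD of the same member over the 221 libraries.

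The gap between members and other identifiers varied with expression level. Among identifiers that were not members, the median NMF2 over NMF1 difference was -0.13 between 0.5 and 2 FPKM, -0.32 between 2 and 5 FPKM and -0.32 between 5 and 20 FPKM. It was -0.24 between 20 and 50 FPKM, -0.07 between 50 and 200 FPKM, and 0.31 at 200 FPKM or more. In the deposited values the most abundant identifiers were thus mostly higher in NMF2 and the others mostly lower, and with libraries scaled by their median the median over all tested identifiers turned from -0.23 to 0.08. Among the members the median was 0.06 for the 42 under 30 FPKM and 0.05 for the 30 of at least 50 FPKM. Their small SD over the same tumors limits these differences, and only 5 members had a mean of at least 100 FPKM. The members therefore cannot show whether such a step exists among them.

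Other properties of the libraries moved with this comparison. The 50 most abundant identifiers held 43.1% of the summed FPKM in the median NMF2 tumor (38.3% to 66.5%) and 38.2% in the median NMF1 tumor (30.6% to 48.7%). The median FPKM over the tested identifiers was 5.53 in the median NMF2 tumor (1.86 to 6.76) and 7.15 in the median NMF1 tumor (5.63 to 8.72). The median FPKM of the members was 36.1 in NMF2 (27.5 to 45.3) and 34.6 in NMF1 (27.1 to 45.2). The clusters thus overlapped almost fully on the members. Members were chosen for a small SD over libraries that include these tumors, which limits any such gap, so the overlap is a description. On the typical identifier, which was not chosen in this way, the median NMF2 tumor lay below every NMF1 tumor. The part of the abundant transcripts in these differences was not tested.

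The number of members and of all identifiers called between NMF2 and NMF1 depended on the scaling of the libraries. Scaled by the library median, all 100 members were higher in NMF2 at an adjusted p under 0.05, with a median log2 difference of 0.49 and a range from 0.12 to 0.83, where 37.0% of all tested and 50.6% of the other well-expressed identifiers were higher. The 14 members called lower with the deposited FPKM were thus called in the opposite direction. Scaled by the upper quartile, 86 members were higher and 0 lower, with a median of 0.30. In that fit 25.9% of all tested and 38.1% of the other well-expressed identifiers were higher. An unadjusted p under 0.05 was counted for members only, 88 of them. Scaled by the members themselves, 29 were higher and 30 lower (12.3% and 53.3% of all tested), and the median of 0.01 is then set by construction.

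The at least 2-fold calls among all identifiers moved in the same manner. With the deposited FPKM, 38 identifiers were higher and 817 lower in NMF2, so 4.44% of the calls were higher. With the library median the counts were 409 and 174, and 70.2% were higher. The upper quartile gave 151 and 367, with 29.2% higher. Scaling by the members gave 36 and 1021, with 3.41% higher. The deposited values and the members thus gave nearly the same split, and the library median gave the opposite one. Members were chosen for a small SD of the deposited values, which keeps their log2 factor per library small. Its SD over libraries was 0.147, against 0.291 for the library median. The likeness of the first 2 splits therefore follows from the rule and favors neither scaling. For tumor against normal tissue the counts moved less between scalings, from 212 higher and 574 lower with the deposited FPKM to 194 and 596 with the library median, although a pseudocount of 0.1 gave 462 and 969.

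**Figure D3:**
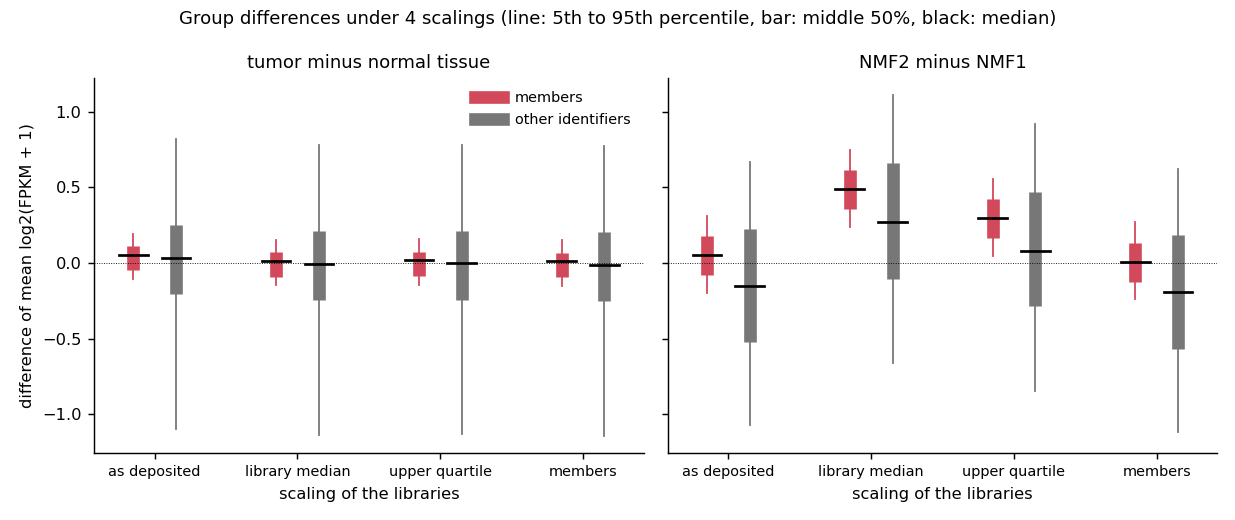
Differences of mean log2(FPKM + 1) (vertical) of the members (red) and the other well-expressed identifiers (gray) for tumor minus normal tissue and for NMF2 minus NMF1, under the deposited values and 3 scalings of the libraries; thin lines span the 5th to 95th percentile, bars the middle 50%, black lines mark the median. The median of the members stays between 0.01 and 0.05 for tumor minus normal tissue and moves from 0.05 to 0.49 for NMF2 minus NMF1 when libraries are scaled by their median.

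As a measure of scale, a library offset was computed for each library: the median over the members of log2(FPKM + 1) minus the member's mean over the 221 libraries. An offset of 0 means that the typical member stood at its mean. Over the 221 libraries the offset had an SD of 0.15, and 127 libraries (57.5%) lay within 0.1 of 0, while 15 lay beyond 0.3. The lowest offset was -0.58, in the normal tissue of CMT-210, followed by -0.50 in the tumor CMT-686. The highest was 0.36, in the tumor CMT-360. Without CMT-686 and the normal CMT-210 the SD was 0.14.

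The same offset over the other well-expressed identifiers had an SD of 0.19 and reached -1.16 in CMT-686. In that tumor the median FPKM of the tested identifiers was 1.86, the lowest of all libraries, and its members deviated from one another with an SD of 0.70, against a median of 0.22 and a lowest value of 0.12 over libraries. Members in CMT-686 were thus low on the whole and uneven among themselves, and the other identifiers were lower still. Of the CMTs, only 1 had a lower mapping rate than CMT-686 and 2 a higher share in the 50 most abundant identifiers, while 121 had fewer mapped reads. Whether these properties of the library set its low values was not tested. In the normal CMT-210 the SD among members was 0.23, near the median library, and the other identifiers stood at -0.41. Its members thus stood low together, and lower than the rest.

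By group, the offset of the members was -0.03 ± 0.15 in normal tissues (SD, n = 64), 0.01 ± 0.12 in NMF1 (SD, n = 92) and 0.06 ± 0.18 in NMF2 (SD, n = 35). It was -0.02 ± 0.18 in NMF3 (SD, n = 18), 0.02 ± 0.06 in NMF4 (SD, n = 7) and -0.15 ± 0.09 in NMF5 (SD, n = 5). Each group mean lay within 1 SD of 0 except that of NMF5, whose 5 tumors all had an offset below 0, from -0.29 to -0.06. Members stood above the other well-expressed identifiers in 30 of 35 NMF2 tumors but in 27 of 92 NMF1 tumors, with a median gap of 0.09 and -0.05. In NMF3 the count was 10 of 18, and in normal tissues 25 of 64.

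**Figure D4:**
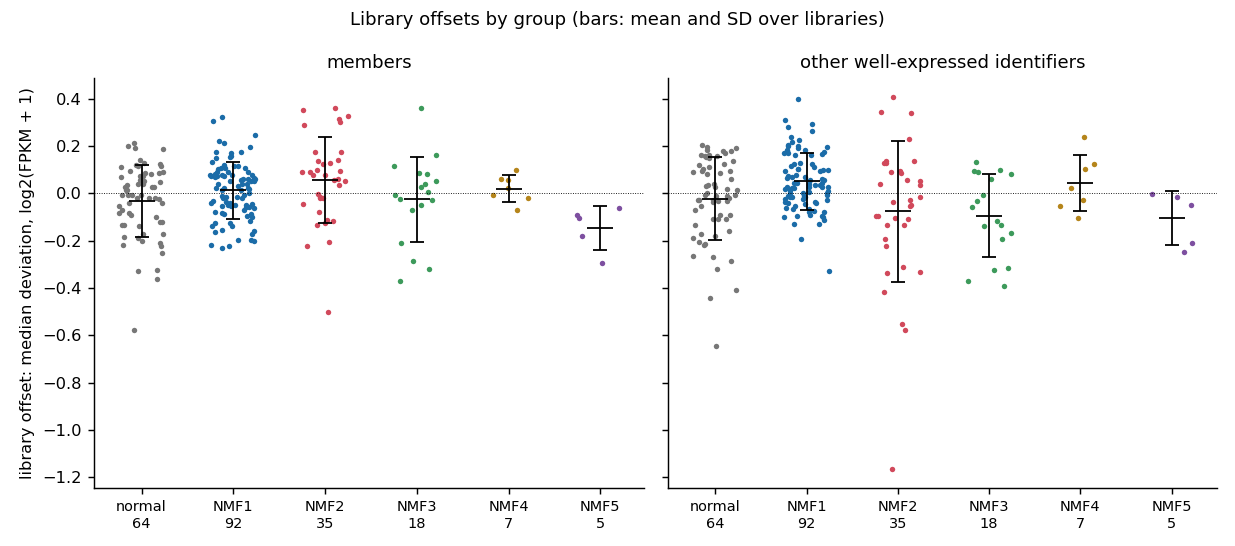
Library offset, the median deviation in log2(FPKM + 1), of the 100 members (left) and the 3367 other well-expressed identifiers (right) by group, 1 point per library, with the mean and SD. The means of NMF1 and NMF2 are 0.01 and 0.06 for the members, and 0.05 and -0.08 for the other identifiers.

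Across libraries, the offset of the members followed that of the other well-expressed identifiers. Pearson's r was 0.69 (Spearman's rho 0.63) over the CMTs and 0.75 (rho 0.73) over the 64 normal tissues, and 0.65 and 0.78 without the 2 libraries farthest from the median offset of the other identifiers. Both offsets come from the same libraries and the same scaling to a total, so the values are descriptive. With the offset over all tested identifiers, most of which are of low level, r was 0.28 (rho 0.09) over CMTs and 0.42 (rho 0.37) over normal tissues. The r of the members was thus larger with the other well-expressed identifiers than with all tested ones; the difference was not tested.

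**Figure D5:**
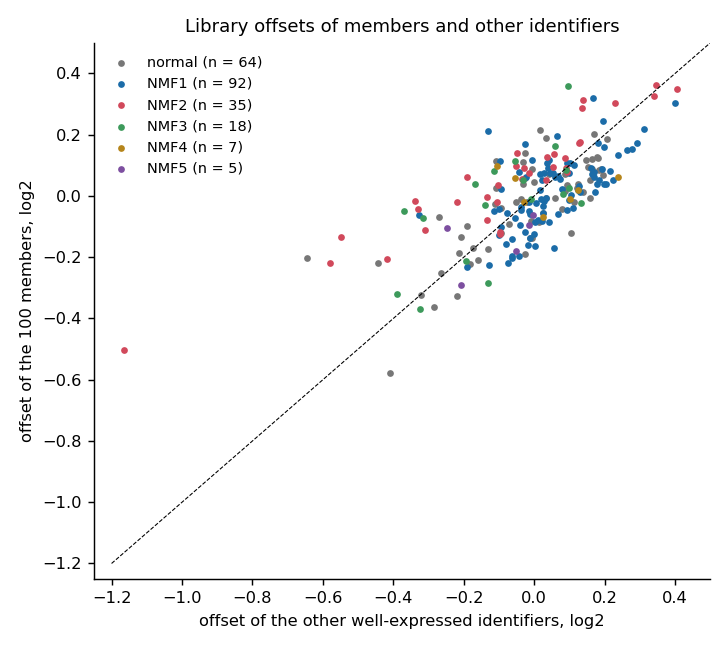
Library offset of the 3367 other well-expressed identifiers (horizontal, log2) and of the 100 members (vertical, log2), 1 point per library colored by group, with equality as the dashed line. CMT-686 lies at -1.16 and -0.50, far left of all other libraries, and 30 of 35 NMF2 tumors lie above the line.

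The offsets were next set against the depth and makeup of the libraries, apart in CMTs and normal tissues, giving 6 relations. No p is given, since the offset is a score over members chosen from these libraries. Against the number of mapped reads, r was 0.10 (rho 0.08) in CMTs and -0.10 (rho -0.17) in normal tissues, and within surgery years it lay between 0.05 and 0.30 in CMTs and between -0.19 and 0.15 in normal tissues. Against the mapping rate, r was 0.18 (rho 0.09) in CMTs, falling to 0.04 without the 2 farthest libraries, and 0.09 (rho 0.05) in normal tissues. Within surgery years it lay between -0.10 and 0.39 in CMTs and between 0.05 and 0.57 in normal tissues, the highest being that of the 13 normal tissues of 2016, with 0.51 without the 2 farthest. Over all years, no r with either measure exceeded 0.18.

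Against the share of the summed FPKM in the 50 most abundant identifiers, r was -0.20 (rho 0.02) in CMTs. Within years it was 0.32 in 2016, -0.22 in 2017 and -0.60 in 2018, and the last became 0.04 without the 2 farthest tumors. In normal tissues r was -0.47 (rho -0.34), with -0.45, -0.42 and -0.82 within years, which became 0.00, -0.35 and -0.52 without the 2 farthest. For comparison, the offset over all tested identifiers gave an r of -0.73 (rho -0.57) in CMTs and -0.52 (rho -0.44) in normal tissues. In CMTs the r of the members was thus nearer 0 than that of all tested identifiers, and in normal tissues both were below 0 over all years. The share and the offsets come from the same FPKM values. The summed FPKM, over which the share was taken, was not fixed and ran from 470054 to 1.33e+06 over libraries.

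Which libraries came from the same dog played no part in choosing the members. Over the 64 dogs with both tissues, the offsets of tumor and normal tissue had an r of 0.25 (rho 0.35), and 0.25 again without the 2 dogs whose normal tissue lay farthest from the median. Within surgery years r was 0.35 in 2016 (13 dogs), 0.16 in 2017 (40 dogs) and 0.70 in 2018 (11 dogs), and without the 2 farthest dogs it was 0.88, 0.20 and 0.27, so the values of 2016 and 2018 depended on 2 dogs each. Without CMT-210, which left 63 dogs, r was 0.31. The offset of the other well-expressed identifiers gave an r of 0.26 (rho 0.39) over the 64 dogs, so the likeness was not particular to the members. Gene by gene, the median r over the 64 dogs was 0.22 for the members (-0.11 to 0.54, above 0 for 91 of 100). It was 0.22 for the other well-expressed identifiers too, above 0 for 3132 of 3367. The offset of the members was higher in the tumor in 44 of 64 dogs, with a mean difference of 0.05 ± 0.16 (SD, n = 64).

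Members also moved together beyond single pairs of tissues. Of the 4950 pairs of members, 88.5% had a correlation above 0 over the 221 libraries, with a median of 0.23 and a range from -0.40 to 0.70. The points share 64 dogs and 1 scaling per library. Pairs of the other identifiers were not examined, so this is not shown to be particular to the members. The first principal axis held 24.3% of the members' variance. The library offset is the median over these same members, so removing it favors a smaller SD by construction. Its removal lowered the SD of 94 of 100 members, and the mean SD fell from 0.30 to 0.26. Most of the spread of a member thus remained after 1 common factor per library was taken out.

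Among the other 3367 identifiers, which did not set the factor, scaling by the members lowered the SD of 69.2% (2331 identifiers). Scaling by the upper quartile lowered it for 61.2% and by the library median for 48.7%. The median SD of these identifiers was 0.587 after scaling by the members, 0.588 by the upper quartile and 0.624 by the library median, from 0.600 before. The gain was therefore slight, and the library median raised the typical SD. For the members themselves the library median raised the median SD from 0.306 to 0.397, and only 5 of 100 had a smaller SD after it. Members were chosen for a small SD before scaling, which favors a rise after another scaling. Their values are therefore no test of the library median.

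As a pair, ENSCAFG00000017800 and ENSCAFG00000002772 kept the steadiest ratio of all pairs; they were singled out after their values were seen. Their mean levels were 24.2 and 70.0 FPKM, and the first stood at 0.354 of the second in the median library (0.225 to 0.612), on the FPKM + 1 scale. The SD of the log2 ratio was 0.217, against a median of 0.372 over the 4950 pairs. That SD is about as large as the SD of ENSCAFG00000017177 alone.

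One more tumor, CMT-351, is missing from the clinical table and was not used to choose the members, which makes it a library outside the rule. In it the members ran from 20.6 to 288 FPKM, and 99 of 100 lay within 2 SD of their mean over the 221 libraries, as did 99.05% of the other well-expressed identifiers. Their deviations had a median of 0.27, a range from -0.27 to 0.78 and an SD of 0.18, and 95 of 100 were within 0.5. The other well-expressed identifiers had a median of 0.26 and an SD of 0.77, and 64.7% were within 0.5. The members thus stayed close together in this tumor too, while the whole set stood above its mean as the other identifiers did.

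Malignant and benign CMTs were compared next. The rule did not use these labels, but it chose members for a small SD over the same tumors, which limits any such difference. No member differed between the 113 malignant and the 44 benign tumors at an adjusted p under 0.05 (limma). Of all 14584 identifiers tested, 0.357% were higher and 0.775% lower. An unadjusted p under 0.05 was counted for members only, 18 of them, so no share of all identifiers stands beside it. The log2 differences ran from -0.11 to 0.19 with a median of 0.03, which was -0.01 with libraries scaled by the members, and their standard errors from 0.04 to 0.06. ENSCAFG00000017177 stood at 14.7, 22.3 and 30.8 FPKM (lowest, median, highest) in benign and at 17.7, 24.5 and 34.5 FPKM in malignant tumors. Its difference of 0.12 ± 0.04 (SE) had an adjusted p of 0.085, and the groups overlapped over most of their range. At a log2 difference of at least 1 as well, 0.0137% of all identifiers were higher and 0.130% lower, and 0 members. Without the 9 tumors whose label and table differ, 0 members passed, where 0.274% of all identifiers were higher and 0.693% lower. In that fit 16 members had an unadjusted p under 0.05, again counted for members only. Without CMT-686, 1 member passed, where 0.494% of all identifiers were higher and 0.823% lower. That member was ENSCAFG00000015629, at 0.18 ± 0.05 (SE, adjusted p = 0.029 by limma). With CMT-686 kept, its difference was 0.17 with an adjusted p of 0.057. It was named for this after its values were seen.

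Grade 3 and grade 1 CMTs differed for some members. Of the 100 members, 6 were higher in the 28 grade 3 tumors and 8 lower than in the 62 grade 1 tumors at an adjusted p under 0.05 (limma), and 8.15% of all 14492 identifiers tested were higher and 11.2% lower. None of the members differed at least 2-fold, against 0.828% higher and 1.59% lower of all identifiers. The share of members called was thus near or below that of all identifiers, and the small SD by which members were chosen limits such differences. The differences that passed ran from 0.20 to 0.33 upward and from -0.21 to -0.32 downward, and the median over all members was -0.0037.

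ENSCAFG00000001400 was among the members higher in grade 3. It stood at 45.6, 79.3 and 106.7 FPKM (lowest, median, highest) in grade 1, at 54.6, 74.9 and 126 FPKM in grade 2 and at 67.3, 91.3 and 195 FPKM in grade 3. The log2 difference of grade 3 over grade 1 was 0.29 ± 0.07 (SE), with an adjusted p of 0.0021 by limma. The groups overlapped between 67.3 and 106.7 FPKM, and the highest grade 3 tumor was also the highest of all libraries. The median of grade 2 was below that of grade 1, while its lowest and highest values lay between those of the other grades.

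All 14 members called by grade kept their direction under each alternative. All 14 also remained called when surgery year was a covariate, without CMT-686 and when scaled by the members, 13 remained with the upper quartile, and 5 with the library median. Over the 4 comparisons, 79 of the 100 members passed the threshold in at least 1, as did 89.1% of the 14206 identifiers tested in all 4 and 90.0% of the other well-expressed ones.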

How the data were processed

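RNA-seq libraries of 157 CMTs and 64 adjacent normal tissues were analysed. The authors mapped the reads with TopHat2 2.0.9 and Bowtie2 to CanFam3.1 after FastQC 0.10.1, and the deposited values are FPKM calculated with Cufflinks 2.1.1, with no further scaling named. The numbers of reads behind single values are unknown, so the spread between libraries is the only error given. Tumor or normal tissue, grade, malignancy and surgery year came from the sample labels, and NMF clusters, mapped reads and mapping rates from the study's tables. The tumor CMT-351, which has no cluster, was left out except where named.

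Members were the 100 identifiers with the smallest SD of log2(FPKM + 1) among those with a mean of at least 20 FPKM. The members and the comparisons were chosen with earlier results of these data known. Groups were compared with limma 3.58.1 (R 4.3.3), two-sided, after log2(FPKM + 1), using the trend of variance with level, over identifiers with a mean of at least 0.5 FPKM, with Benjamini-Hochberg adjustment over all of them; differences are on that scale, which understates the change of low values. All other steps used Python 3.11.15, numpy 2.4.6, pandas 2.3.3 and scipy 1.17.1. The fit was tested on simulated data first. Alternatives were a pseudocount of 0.1, no filter on low values, scaling of each library by its median, its upper quartile or the members, surgery year as a covariate, CMT-351 added, and the dog as a block.

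Identifiers were named by a rule: the 2 members with the largest tumor over normal difference and the 2 with the largest in the other direction, the one with the smallest SD and the one with the highest mean. Both tissues of 64 dogs came from 1 animal by the labels, which pairs them. Over 14713 identifiers deviations from the group mean correlated within dogs with a mean r of 0.20, with 45 of 64 dogs above 0.1 and a lowest value of -0.27. Permutation p-values had been planned for the library offsets and are not given, since the offset is a score over chosen members. Another identifier's values were repeated in every library for 33 identifiers, 0 of them members.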

Additional observations from a re-analysis of the deposited data

How the results depend on the processing

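Of the 100 members, 45 remained with a minimum mean of 10 FPKM, 30 with 50 FPKM, 20 with libraries scaled by their median and 51 with the SD taken over normal tissues alone. The other 5 alternative rules shared at least 78. The 30 were all the members with a mean of at least 50 FPKM, so that rule dropped members by level alone. For tumor against normal tissue, members higher numbered 8 (library median), 15 (upper quartile) and 19 (members scaling) against 31, and members lower 13 (upper quartile) and 26 (members scaling) against 7. The replicate block of 64 dogs gave 3 lower members, and this pairing moved no other count of members by over 1.5 times. For NMF2 against NMF1, members higher numbered 100 (library median) and 86 (upper quartile), members lower 0 under both and 30 (members scaling), and the median was 0.49 and 0.30 under the first pair. For grade 3 against grade 1, members higher numbered 12 (upper quartile) and 14 (members scaling), where 10.5% and 8.42% of all identifiers were higher. Members lower numbered 1 (library median), where 9.52% of all identifiers were lower. Without CMT-686, an alternative chosen after seeing the data, 1 member was higher in malignant tumors; without it and the normal CMT-210 the SD of the offset was 0.139. The r of the offset between tissues of a dog was 0.70 in 2018. Against the mapping rate r was -0.10 in 2016 and 0.39 in 2018 in CMTs and 0.57 in 2016 in normal tissues, and against the share of the 50 most abundant identifiers, added after seeing the data, it was 0.32 in 2016 and -0.60 in 2018 in CMTs and -0.82 in 2018 in normal tissues. The cause of these shifts was not tested. At least 2-fold counts over all identifiers for NMF2 against NMF1 were 78 and 2058 with a pseudocount of 0.1, against 38 and 817. For tumor against normal tissue they were 462 and 969, against 212 and 574. For NMF2 against NMF1, scaling by the library median turned 14 of the 48 called members to the opposite sign, all 14 called there, and the upper quartile turned 11, with 1 called; in the other comparisons no called member changed sign. Leaving out the 9 tumors whose label and table differ was chosen after seeing the data.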

Other observations

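The list of stable members differed between tissues. The 100 smallest SDs taken over CMTs alone and those over normal tissues alone shared 40 identifiers, 40.0% of each list, and 39 of these were members; 8 members were in neither list. Of the 100 members, 3 were kept by all 9 alternative rules, 17 by 8 of them and 2 by only 1. The SD of a member was larger in CMTs than in normal tissues for 57 of 100, and this held for 63.9% of the other well-expressed identifiers.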
